A study of Homo sapiens with 6 samples.

Results

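The muscleblind genes *MBNL1*, *MBNL2* and *MBNL3* and the CELF genes *CELF1* to *CELF6* encode RNA-binding splicing regulators that often act against each other, and all 9 were found by symbol among the 60651 genes of each deposited table. They were measured by total RNA sequencing after depletion of ribosomal RNA in 6 libraries from a human neuroblastoma line, neuroblastoma being a paediatric tumour of the sympathetic nervous system. The control group held 3 libraries titled EtOH, after the ethanol vehicle, and the treated group held 3 libraries titled Tet, for which the labels describe 5 days of tetracycline. The cell model is given in more than one way: every title names IMR575, the protocol text of all 6 samples describes single clones of SK-N-SH with stable *MYCN* under a tetracycline repressor, and a tag speaks of a knockdown with the values Control and Induction. The study describes *MYCN* induction in SK-N-AS cells and an inducible *MYCN* shRNA in *MYCN*-amplified IMR-5/75 cells, so the groups are called here by their titles alone, EtOH and Tet.

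MBNL proteins bind RNA through CCCH zinc fingers and CELF proteins through RNA recognition motifs. Both families set the inclusion of alternative exons, in muscle and heart often in opposite directions on the same exons, and they also act on RNA stability, localisation and translation. In myotonic dystrophy, expanded CUG repeats sequester MBNL proteins while CELF1 is stabilised, which returns many exons to a fetal pattern. *MBNL2* is the muscleblind gene best known for its part in brain splicing, *CELF1* and *CELF2* are broadly expressed, and *CELF3* to *CELF6* are known mainly from neurons. Muscleblind is also known to bind its own transcript and to favour formation of a circular RNA from it, and circular RNAs were the subject of the study. The values here are per gene and hold neither exon inclusion nor circular RNA.

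*MYCN*, the gene that the treatment was meant to regulate, was at 158, 256 and 156 CPM (counts relative to library size, scaled by TMM) in EtOH replicates 1, 2 and 3, against 197, 200.1 and 145 CPM for Tet, and values per library are given in this order throughout. Its log2 fold change, Tet against EtOH, was -0.07 (edgeR adjusted p = 0.956, SE 0.23), and the groups overlapped. Without EtOH replicate 2 it was 0.21. The 95% interval of -0.60 to 0.46 includes 0, so *MYCN* RNA does not tell the titles apart, and each direction below compares the titles only. The study reports western blots of MYCN protein in both of its cell models, while the values here are RNA of these libraries alone. The libraries held 27933378 to 40498065 counts, at which 3 counts are 0.0741 to 0.107 CPM before TMM scaling. Replicates of a group differed by more than sampling noise (chi-square per degree of freedom 10.2 to 128). The first principal component of log2 CPM, with 47.3% of the variance, set both libraries numbered 2 apart (scores 60.5 for EtOH and 37.5 for Tet). The other 4 had scores between -43.1 and 0.680. The second component, with 26.9%, separated the titles, with scores of -29.1 to -26.1 for EtOH and 18.1 to 40.2 for Tet. The study describes its cell experiments as biologically independent replicates, while the labels of these libraries do not say whether they were separate cultures, and where they were not p-values measure only the spread between these libraries. Of 10 noradrenergic neuroblastoma markers, 7 had a mean over 1 CPM, with *GATA3* and *HAND2* over 100 CPM on average in both groups. *TH* and *DBH*, which mark catecholamine synthesis, were at or near 0. Of 10 mesenchymal neuroblastoma markers, 8 had a mean over 1 CPM. Among them *VIM* was at 201 and 174 CPM on average in EtOH and Tet libraries, while *COL1A2* was at 0 in all of them. The summed level of muscle markers was at most 0.755 CPM in any library, with 6 of 8 at 0 in all of them, and that of blood and endothelial markers was at most 1.14 CPM.

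The genomic setting of the members differed. On GRCh38, *MBNL1* (ENSG00000152601.17) lies on the plus strand at chr3:152243828-152465780, *MBNL2* (ENSG00000139793.19) on the plus strand at chr13:97221434-97394120 and *MBNL3* (ENSG00000076770.14) on the minus strand at chrX:132369317-132489968. *CELF1* (ENSG00000149187.18, chr11:47465933-47565569), *CELF3* (ENSG00000159409.15, chr1:151700058-151716803), *CELF4* (ENSG00000101489.20, chr18:37243040-37565827) and *CELF6* (ENSG00000140488.16, chr15:72284727-72320157) lie on minus strands, and *CELF2* (ENSG00000048740.18, chr10:10798397-11336675) and *CELF5* (ENSG00000161082.13, chr19:3224661-3297076) on plus strands. The loci ranged from 16.8 kb for *CELF3* to 538 kb for *CELF2*, with exons covering between 3616 bases (*CELF6*) and 12199 bases (*MBNL3*). Reads over exons that belong to more than 1 gene were divided evenly among those genes. None of the exon bases of *MBNL2*, *MBNL3* and *CELF2* are shared, against 15.6% of *MBNL1*, 7.28% of *CELF4* and 93.3% of *CELF6*, so the *CELF6* values are uncertain.

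Promoter sequences are shown for the members with the widest separation between the groups, *MBNL2* and *CELF4*, and for the only RefSeq start of a member with the canonical E-box, the hexamer bound by MYCN and its relatives. Each runs 5′ to 3′ from 250 bases before to 50 bases after a start, from RefSeq on GRCh38.p14, with the E-box CACGTG in capitals. The lines give *MBNL2* on the plus strand at chr13:97222083-97222382, *CELF4* on the minus strand at chr18:37485743-37486042 and *MBNL1* on the plus strand at chr3:152298764-152299063.
MBNL2: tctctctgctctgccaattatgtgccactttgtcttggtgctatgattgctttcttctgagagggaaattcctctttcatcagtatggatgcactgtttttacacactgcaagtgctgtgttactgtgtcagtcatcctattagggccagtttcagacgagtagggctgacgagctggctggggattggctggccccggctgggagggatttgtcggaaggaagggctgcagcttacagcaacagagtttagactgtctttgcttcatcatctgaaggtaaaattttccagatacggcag
CELF4: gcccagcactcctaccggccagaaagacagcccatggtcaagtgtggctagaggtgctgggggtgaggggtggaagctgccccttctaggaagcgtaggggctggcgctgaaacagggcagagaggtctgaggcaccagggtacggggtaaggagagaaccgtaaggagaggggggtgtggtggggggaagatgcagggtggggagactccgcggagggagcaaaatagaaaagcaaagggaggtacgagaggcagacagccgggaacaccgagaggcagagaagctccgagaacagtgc
MBNL1: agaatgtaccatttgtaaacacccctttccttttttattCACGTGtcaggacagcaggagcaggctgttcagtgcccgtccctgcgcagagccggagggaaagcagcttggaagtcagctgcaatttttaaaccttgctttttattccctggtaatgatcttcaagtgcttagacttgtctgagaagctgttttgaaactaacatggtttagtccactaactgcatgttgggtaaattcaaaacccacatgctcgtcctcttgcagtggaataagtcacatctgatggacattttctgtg
The hexamer, which reads the same on both strands, was found in 1 of 29 promoters of the 9 members (3.45%) and in 2548 of 35116 promoters of the same length in RefSeq (7.26%). It begins 211 bases before that *MBNL1* start, which is 1 of 3 starts listed for the gene. A match of letters is a description only. The GC content was 48.3% for the *MBNL2* promoter shown, 61.7% for *CELF4* and 44.3% for *MBNL1*. Another RefSeq start is listed for *MBNL2*, with a promoter at chr13:97141584-97141883 that is not shown. It lies outside the span of *MBNL2* given above.

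*MBNL2* was higher in every library titled Tet than in any titled EtOH, and it was the muscleblind gene with the widest separation. It stood at 39.3, 29.1 and 40.3 CPM in the EtOH libraries, against 77.3, 73.5 and 77.0 CPM in the Tet libraries. The 3 Tet libraries lay close together and the EtOH libraries spread more widely, with replicate 2 lowest. The means were 36.2 ± 6.20 and 75.9 ± 2.11 CPM (SD, n = 3 each), a 2.09-fold difference. The log2 fold change of 1.07 (SE 0.17, 95% interval 0.68 to 1.45) ranked 66 of 22443 genes tested by p but missed the threshold (edgeR adjusted p = 0.0584).

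*MBNL1*, the muscleblind paralog best known from muscle, was at 98.4, 146 and 107 CPM in the EtOH libraries, against 92.0, 125 and 103 CPM in the Tet libraries. The groups overlapped, and replicate 2 was the highest of each. The log2 fold change was -0.14 (SE 0.20, 95% interval -0.59 to 0.31, edgeR adjusted p = 0.879). *MBNL3*, a paralog known from proliferating muscle precursors and placenta, was at 149, 278 and 159 CPM in the EtOH libraries, against 202, 288 and 177 CPM in the Tet libraries. Here too both libraries numbered 2 were the highest, and the means of 195 and 222 CPM differed by less than the SD of 72.0 in EtOH and 58.2 in Tet libraries (edgeR adjusted p = 0.886 at a log2 fold change of 0.18, SE 0.28). The intervals for *MBNL1* and for *MBNL3* (-0.45 to 0.82) both include 0, and the upper bound of *MBNL1* lies below the lower bound of *MBNL2*.

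Among CELF genes, *CELF4*, a neuronal member that regulates synaptic mRNAs, had the widest separation. It stood at 23.0, 20.0 and 29.2 CPM in the EtOH libraries, against 46.3, 57.0 and 64.2 CPM in the Tet libraries. Every Tet library was above every EtOH library. The means were 24.1 ± 4.67 and 55.9 ± 9.02 CPM (SD, n = 3 each), a 2.32-fold difference, with a log2 fold change of 1.21 (SE 0.20, 95% interval 0.75 to 1.67). It ranked 85 of 22443 by p and, like *MBNL2*, missed the threshold (edgeR adjusted p = 0.0635). Of 3 unnamed genes on the opposite strand that share exon bases with it, the most abundant, ENSG00000267707, was at 4.46 ± 0.612 and 5.44 ± 0.601 CPM (SD, n = 3 each).

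*CELF1*, the broadly expressed founding member, was the only other member tested whose groups did not overlap, and it lay the other way. It was at 174, 167 and 182 CPM in the EtOH libraries, against 151, 165 and 145 CPM in the Tet libraries. The gap between the lowest EtOH and the highest Tet library was thus small. The log2 fold change of -0.18 (SE 0.14, 95% interval -0.49 to 0.13) was within the error (edgeR adjusted p = 0.712). *CELF2*, a broadly expressed paralog with roles in brain, heart and T cells, was at 12.5, 17.7 and 11.6 CPM in the EtOH libraries, against 16.7, 16.8 and 11.9 CPM in the Tet libraries, and the groups overlapped (edgeR adjusted p = 0.922 at a log2 fold change of 0.12, SE 0.24). The neuronal gene *CELF3* was at 35.7, 16.7 and 38.3 CPM in the EtOH libraries, against 37.7, 25.2 and 56.1 CPM in the Tet libraries. Replicate 2 was the lowest of each group, and the log2 fold change was 0.39 (SE 0.36, 95% interval -0.44 to 1.22, edgeR adjusted p = 0.784).

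The remaining CELF genes were barely expressed. *CELF6* was at 0.837, 0.108 and 1.02 CPM in the EtOH libraries, against 0.851, 0.536 and 0.881 CPM in the Tet libraries, with a total of 142.83 estimated counts over all libraries. Its interval was wide (edgeR adjusted p = 0.963 at a log2 fold change of 0.19, 95% interval -1.33 to 1.71), and an unnamed gene on the same strand, ENSG00000260729, shares 3212 of its 3616 exon bases. *CELF5* had 43 counts in all, between 0 and 17.5 per library, and did not pass the filter. The 0 in EtOH replicate 2 allows up to 0.104 CPM before TMM scaling. No difference in *CELF5* is drawn from these counts.

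**Figure D1:**
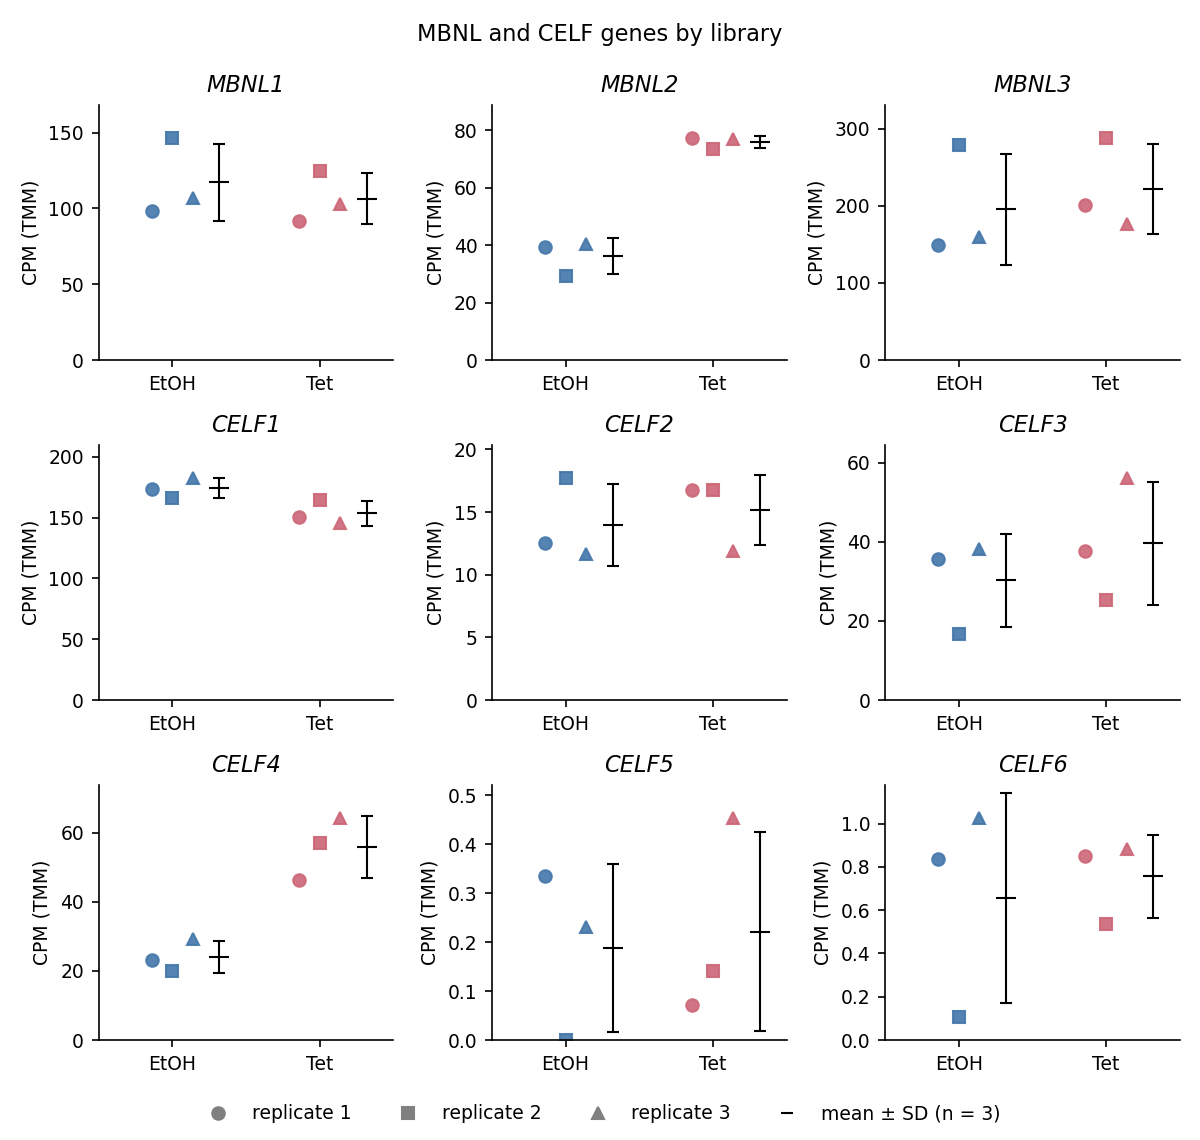
Level of each MBNL and CELF gene in CPM (scaled by TMM, linear axes from 0) in the 3 libraries titled EtOH (blue) and the 3 titled Tet (red), with symbols for replicates and black bars for the mean ± SD. All Tet points lie above all EtOH points for MBNL2 and CELF4 and below them for CELF1, while the groups overlap for the other 6 genes.

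Over the 9 genes, 8 passed the filter on low counts and 0 passed the threshold of an edgeR adjusted p under 0.05 in either direction. Of all 22443 genes tested, 0.147% were called higher and 0.0891% lower. At an unadjusted p under 0.05, 2 of 8 members were higher, *MBNL2* and *CELF4*, where 5.83% of all genes were, and 0 were lower, where 4.94% of all genes were. All Tet libraries lay above all EtOH libraries for these same 2 members (9.2% of all genes) and below them for *CELF1* (8.28% of all genes). The log2 fold change was positive for 6 of 8 members and negative for 2, with a median of 0.19 against -0.0061 over all genes tested. Neither *MBNL2* nor *CELF4* was called by limma-voom, which called 0.165% of all genes higher.

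**Figure D2:**
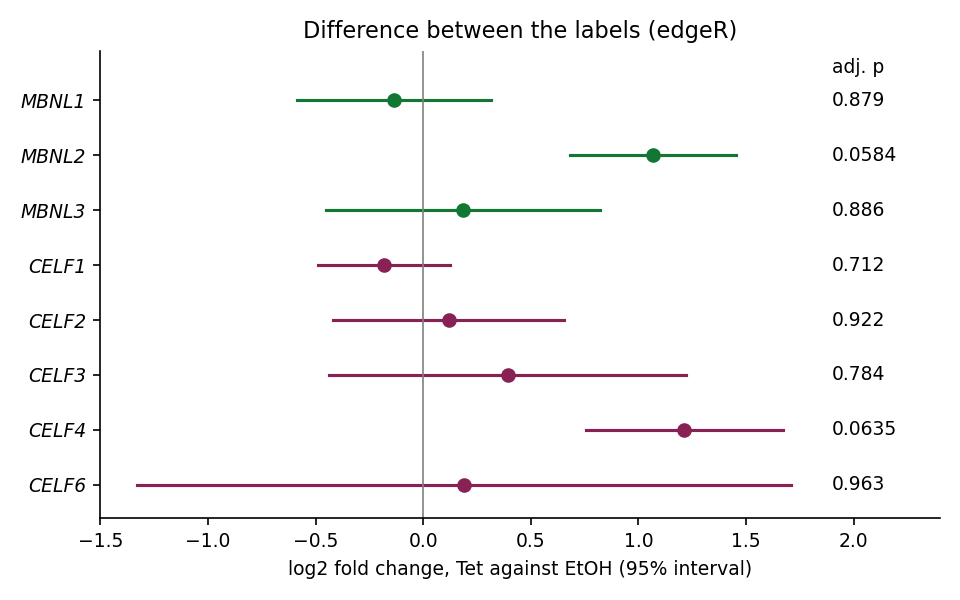
Log2 fold change of the 8 tested members, Tet against EtOH (points), with 95% intervals (lines) and edgeR adjusted p at the right, MBNL genes in green and CELF genes in purple. The intervals of MBNL2 (0.68 to 1.45) and CELF4 (0.75 to 1.67) lie above 0, and those of the other 6 genes include 0.

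Whether *MBNL2* and *CELF4* passed the threshold depended on the processing, while their log2 fold changes moved little. Both were called by DESeq2 on the genes that edgeR tested (adjusted p = 2.3e-05 for *MBNL2* and 5.5e-05 for *CELF4*), a fit that called 1.67% of genes higher. They were called as well by DESeq2 on all genes with a count (2.2e-04 and 2.0e-04, where 1.29% of genes were called higher) and by edgeR with no filter (0.00584 and 0.00340, where 0.457% were). Without EtOH replicate 2, edgeR called both (adjusted p = 0.0112 and 0.0190), together with 1.51% of genes higher, and without both libraries numbered 2 it again called both (0.00637 and 0.0253), together with 2.1% of genes. Leaving out any other single library left neither called. With the replicate number as a block, edgeR again called both (adjusted p = 0.00360 and 0.00301), together with 421 of 22443 genes higher. Over all 16 alternatives, the log2 fold change was between 0.94 and 1.13 for *MBNL2* and between 1.09 and 1.35 for *CELF4*.

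**Figure D3:**
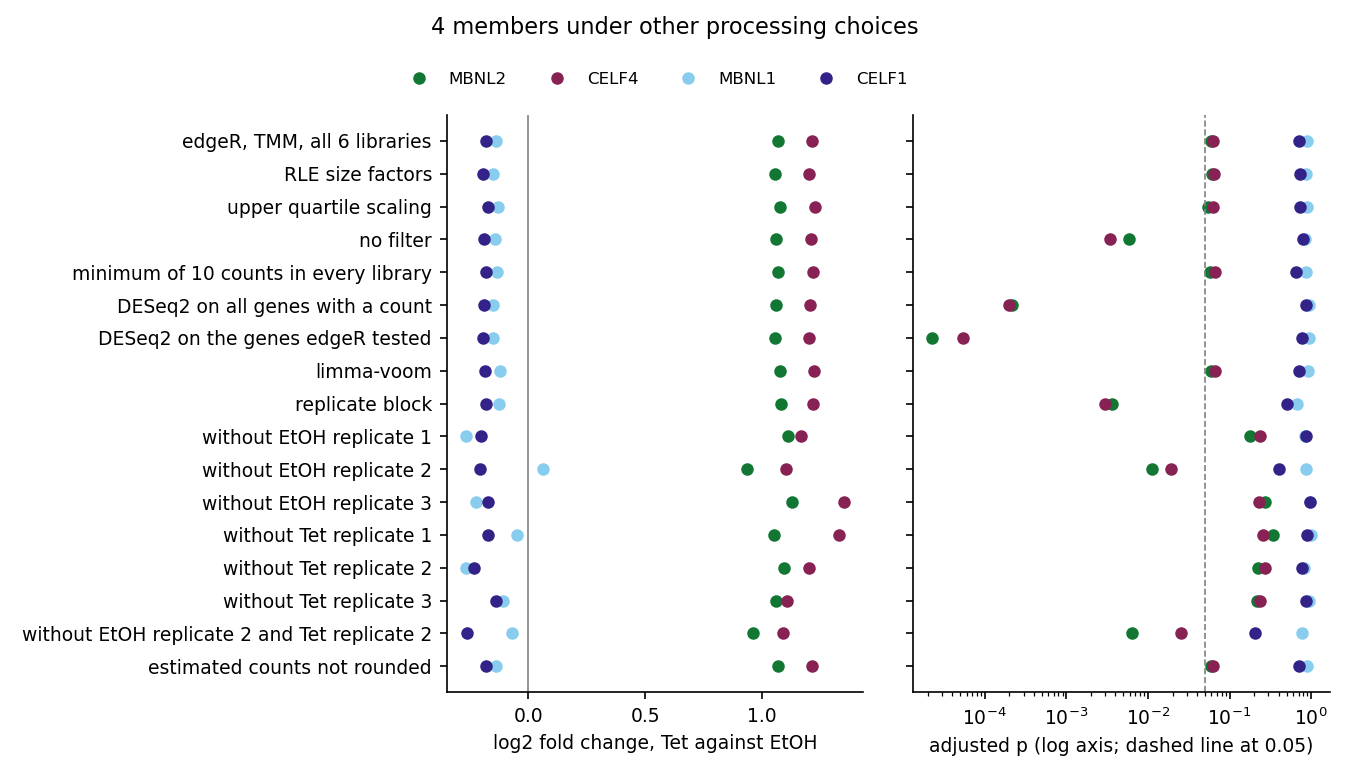
Log2 fold change (left) and adjusted p on a log axis (right) of MBNL2, CELF4, MBNL1 and CELF1 in the edgeR fit of all 6 libraries and 16 alternatives (rows). MBNL2 and CELF4 stay near 1 on the log2 scale and cross the dashed line at 0.05 in 6 alternatives, while MBNL1 and CELF1 stay to its right in all 16.

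Levels of different genes were compared per length, as TPM, the length-scaled share of all transcripts, from the counts and the exon length of each gene. In libraries titled EtOH the order was *CELF1* (46.5 ± 1.42 TPM), *MBNL3* (45.3 ± 19.2), *MBNL1* (33.0 ± 9.03), *MBNL2* (20.5 ± 2.59), *CELF3* (12.3 ± 4.37), *CELF4* (10.6 ± 1.73), *CELF2* (3.58 ± 1.04), *CELF6* (0.495 ± 0.361) and *CELF5* (0.0821 ± 0.0737; SD, n = 3 each). The libraries of neighbours overlapped for the first 3 genes, for *CELF3* and *CELF4* and for the last pair, and were separate elsewhere. In libraries titled Tet, *MBNL2* at 41.1 ± 3.10 TPM stood between *MBNL3* (48.7 ± 14.5) and *CELF1* (39.2 ± 4.70), and *CELF4* at 23.3 ± 2.32 TPM stood above *CELF3* (15.3 ± 5.03). There the first 4 genes, down to *MBNL1* (28.4 ± 4.96 TPM), overlapped from neighbour to neighbour.

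As a share of the family, *MBNL1*, *MBNL2*, *CELF1* and *CELF4* did not overlap between the groups, while *MBNL3*, *CELF2*, *CELF3*, *CELF5* and *CELF6* did. *MBNL2* made up 26.6%, 13.7% and 25.7% of the summed muscleblind TPM in EtOH replicates 1, 2 and 3 and 37.97%, 29.3% and 38.8% in Tet replicates 1, 2 and 3. The share of *MBNL1* was 33.3% ± 0.507 in EtOH and 24.0% ± 1.67 in Tet libraries (SD, n = 3 each), with every Tet library below every EtOH library. Within the CELF family, *CELF4* made up 13.5%, 13.6% and 15.8% in EtOH replicates and 25.2%, 29.8% and 30.1% in Tet replicates. *CELF1* was the largest part of the family in every library, at 63.4% ± 4.60 in EtOH and 47.7% ± 5.74 in Tet libraries. The log2 ratio of *MBNL2* to *MBNL1* was -0.66 ± 0.56 and 0.55 ± 0.26, and that of *CELF4* to *CELF1* was -2.15 ± 0.21 and -0.75 ± 0.27 (SD, n = 3 each), without overlap in either case. Shares within a family depend on each other, so a higher level of *MBNL2* or *CELF4* by itself lowers the shares of the other members. The lower shares of *MBNL1* and *CELF1* are therefore not independent of those levels. The level of *CELF1* itself was also lower, while that of *MBNL1* overlapped between the groups. *CELF1* was at 44.8, 47.1 and 47.5 TPM in EtOH and 40.6, 42.9 and 33.9 TPM in Tet replicates. How much of its lower share goes with its own level was not tested. These shares and ratios were given no test, because they are built from members chosen with results known.

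The balance between the 2 families overlapped between the groups. The summed muscleblind level was 81.1, 128 and 86.8 TPM in EtOH replicates 1, 2 and 3 and 117, 139 and 98.6 TPM in Tet replicates 1, 2 and 3. The summed CELF level was 72.7, 68.6 and 79.2 TPM in EtOH and 81.98, 82.2 and 82.2 TPM in Tet replicates, so that all Tet libraries lay just above all EtOH libraries. The ratio of muscleblind to CELF level was 1.12, 1.87 and 1.10 in EtOH and 1.43, 1.69 and 1.20 in Tet replicates. Muscleblind was the larger family in all 6 libraries. The difference in the log2 ratio, Tet minus EtOH, was 0.11, against an SD of 0.44 in EtOH and 0.25 in Tet libraries.

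**Figure D4:**
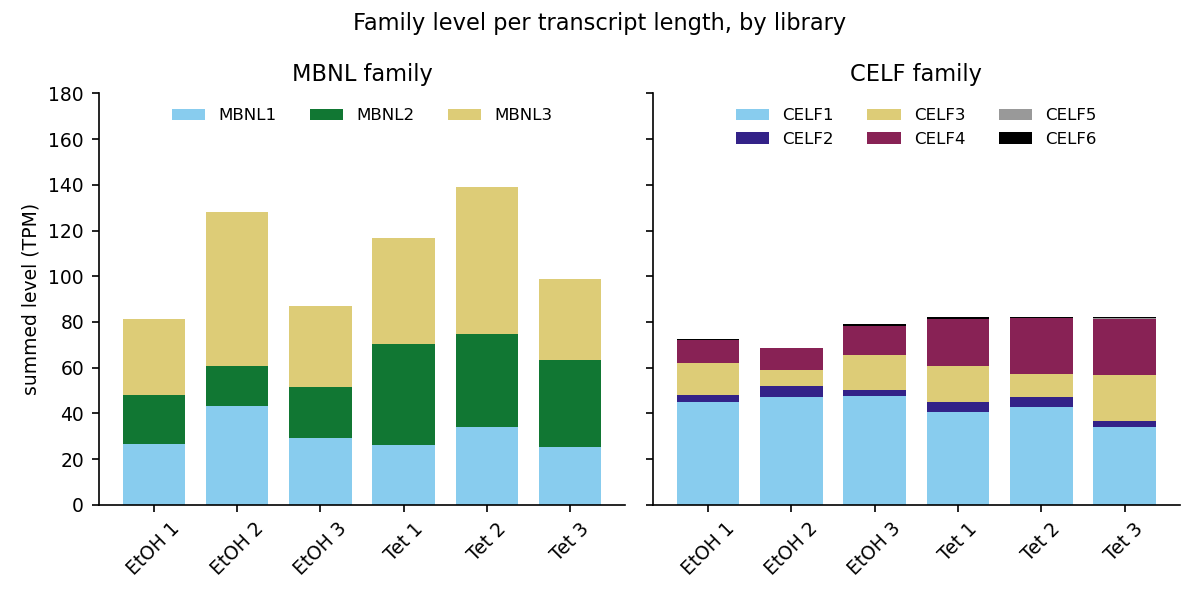
Summed level of the MBNL family (left) and the CELF family (right) in TPM in each library, with each bar divided by gene. MBNL2 (green) and CELF4 (purple) take a larger part of each Tet bar than of any EtOH bar, and within each group the MBNL bar is highest in the library numbered 2.

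The libraries numbered 2, which stood apart on the first principal component, were also the extremes of their groups for 6 of the 9 members. *MBNL1*, *MBNL3* and *CELF2* were highest in replicate 2 of both groups, and *MBNL2*, *CELF3* and *CELF6* were lowest. *CELF6* had only 3 counts in EtOH replicate 2. The share of all genes with such a pattern was not counted, so it is not read as particular to the members. The labels give no batch, and the cause of this difference was not tested. Fits without these libraries and with the replicate number as a block are among the alternatives. With the block, the SE went from 0.28 to 0.13 for *MBNL3* and from 0.36 to 0.15 for *CELF3*. The direction of *MBNL1* and *CELF6* changed without EtOH replicate 2 (log2 fold changes 0.06 and -0.29), that of *CELF2* without EtOH replicate 3 (-0.02) and that of *MBNL3* without Tet replicate 2 (-0.05). Those of *MBNL2*, *CELF1*, *CELF3* and *CELF4* kept their sign in every fit, but *CELF3* moved from 0.39 to 0.06 without Tet replicate 3, 0.11 without EtOH replicate 2 and 0.64 without Tet replicate 2. *MBNL3* also moved to 0.53 without EtOH replicate 2.

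Genes that share exons with a member were examined because the counting did not use the strand. The antisense RNA *MBNL1-AS1* shares 1142 exon bases with *MBNL1* and was at 1.14 ± 0.239 CPM in EtOH and 2.30 ± 0.305 CPM in Tet libraries (SD, n = 3 each). All Tet libraries were above all EtOH libraries, with a log2 fold change of 1.01 that missed the threshold (edgeR adjusted p = 0.287). *PTPMT1* and *NDUFS3*, which overlap *CELF1* on the opposite strand, were at most 4.80 CPM in any library, against at least 145 CPM for *CELF1*. The log2 fold changes of the 6 other partner genes that were tested were between -0.11 and 0.29.

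Known splicing targets of the families were compared at the gene level from a list of 46 genes that includes *INSR*, *MAPT*, *DMD*, *CLCN1* and *TNNT2*. Of 37 tested, 0 passed the threshold in either direction, while at an unadjusted p under 0.05 there were 4 higher and 2 lower, where 5.83% and 4.94% of all genes were. The median log2 fold change was 0.13, against -0.0061 over all genes tested, the value that the medians of the next 3 lists are also set against. *DMD*, which encodes dystrophin, was at 29.5, 35.5 and 34.4 CPM in the EtOH libraries, against 19.1, 16.2 and 15.6 CPM in the Tet libraries, so that all Tet libraries were below all EtOH libraries (edgeR adjusted p = 0.0736 at a log2 fold change of -0.97, SE 0.17). *NDRG4*, a gene expressed in neurons and heart, was at 12.9, 12.7 and 14.9 CPM in the EtOH libraries, against 23.6, 32.4 and 25.7 CPM in the Tet libraries, all above EtOH (edgeR adjusted p = 0.0818 at a log2 fold change of 1.01, SE 0.19). *CD47*, a cell surface signal against phagocytosis, was at 166 ± 15.4 and 245 ± 14.3 CPM (SD, n = 3 each; edgeR adjusted p = 0.187 at a log2 fold change of 0.56). Muscle targets such as *CLCN1* (39 counts in all), *TNNT2* (17 counts) and *RYR1* (0 counts) were too low to be tested.

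Partners and kinases, which include *DMPK* and *CNBP*, the genes whose repeats expand in myotonic dystrophy, and *GSK3B* and *PRKCA*, kinases that act on CELF1, showed 0 of 23 tested genes past the threshold. At an unadjusted p under 0.05 there was 1 higher and 0 lower, a share of higher genes near the 5.83% of all genes, and the median log2 fold change was 0.14. This gene was *DDX5*, an RNA helicase that modulates MBNL1 binding to CUG repeats, at 1144 ± 58.0 CPM in EtOH and 1624 ± 167 CPM in Tet libraries (SD, n = 3 each; edgeR adjusted p = 0.253 at a log2 fold change of 0.51, SE 0.15). *AKT1*, a kinase that acts on CELF1 (edgeR adjusted p = 0.671 at a log2 fold change of 0.75, SE 0.50), and *RBFOX3*, the neuronal splicing regulator also known as NeuN (0.57, SE 0.38, edgeR adjusted p = 0.674), followed by p. Without Tet replicate 3 the log2 fold change was -0.05 for *AKT1* and 0.30 for *RBFOX3*, and without Tet replicate 1 it was 0.92 for *RBFOX3*. *DMPK* was at 0.549 ± 0.0652 and 0.931 ± 0.632 CPM, and *CNBP* at 405 ± 169 and 418 ± 104 CPM.

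Of 13 tested genes of related RNA-binding families, 0 passed the threshold, with 3 higher and 0 lower at an unadjusted p under 0.05 and a median log2 fold change of 0.17. Of all genes, 5.83% were higher and 4.94% lower at that p. The 3 genes were *ELAVL3*, *RBM24* and *ELAVL4*, and in each all Tet libraries were above all EtOH libraries, as in 9.2% of all genes. *ELAVL3* and *ELAVL4* encode neuronal Hu proteins, relatives of the CELF family that stabilise and splice neuronal mRNAs. *ELAVL3* was at 12.9, 18.0 and 14.4 CPM in the EtOH libraries, against 26.2, 40.8 and 37.7 CPM in the Tet libraries (edgeR adjusted p = 0.0818 at a log2 fold change of 1.21, SE 0.22). *ELAVL4* was at 395 ± 23.1 and 587 ± 85.5 CPM (SD, n = 3 each; edgeR adjusted p = 0.221 at a log2 fold change of 0.57). *RBM24*, a splicing regulator of muscle and heart, was at 28.1 ± 3.30 and 49.7 ± 7.53 CPM (edgeR adjusted p = 0.122 at a log2 fold change of 0.82, SE 0.18). The ubiquitous paralog *ELAVL1* had a log2 fold change of 0.20 (edgeR adjusted p = 0.788, SE 0.18).

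In the list of circular RNA regulators, 0 of 14 tested genes passed the threshold, with 1 higher and 0 lower at an unadjusted p under 0.05 and a median log2 fold change of 0.02. The share of higher genes was near the 5.83% of all genes. This gene was *ADARB1*, an RNA-editing enzyme, at 18.3 ± 3.31 and 27.7 ± 4.03 CPM (SD, n = 3 each; edgeR adjusted p = 0.328 at a log2 fold change of 0.59, SE 0.20). *ILF2*, which encodes an RNA-binding complex subunit, was at 307 ± 47.4 and 243 ± 1.94 CPM (edgeR adjusted p = 0.490 at a log2 fold change of -0.34). *HNRNPM*, a splicing repressor, had a log2 fold change of 0.24 (edgeR adjusted p = 0.690). *DHX9* and *QKI* stand in this list and in another of the lists above.

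The genes whose log2 CPM was most like that of *MBNL2* over the 6 libraries were *CFAP95*, *ZNF568* and *MYOCD*, with Pearson r of 0.997 each. These r values are descriptions over points that share the group difference, and 232 genes had an r over 0.95. *MYOCD*, which encodes a coactivator of smooth and cardiac muscle genes, was at 5.72 and 17.4 CPM on average (edgeR adjusted p = 0.0611). *CFAP95* (0.99) and *ZNF568* (0.94) had log2 fold changes near that of *MBNL2* and means under 4 CPM in both groups.

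Some marker sums also separated the groups. The 10 noradrenergic markers summed to between 557 and 657 CPM in EtOH and between 659 and 783 CPM in Tet libraries, without overlap. Of these, 1 passed the threshold, *DDC*, an enzyme of catecholamine synthesis, at 0.242 and 2.84 CPM on average (edgeR adjusted p = 0.0280 at a log2 fold change of 3.55). The 10 mesenchymal markers summed to between 341 and 590 CPM in EtOH and between 327 and 490.4 CPM in Tet libraries, with *COL1A2* at 0 in all 6, and 0 of them passed the threshold. Schwann cell and glial markers summed to between 5.92 and 7.97 CPM in EtOH and between 4.20 and 5.56 CPM in Tet libraries, with *S100B* at 0. The part of cell state in the values of *MBNL2* and *CELF4* was not tested, and in bulk RNA a change in the share of cells and a change of RNA per cell cannot be told apart.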

How the data were processed

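Values were estimated counts per gene, 1 table for each of 6 libraries. Per the file headers, the authors made these estimated counts with featureCounts 1.6.4 from unique STAR alignments of trimmed reads to exons, dividing read pairs evenly among overlapping genes and ignoring strand, whereas the submitters' processing notes name STAR 2.7.1a and featureCounts 1.5.1 and the study's methods give other options. Coordinates are GRCh38: of 53026 identifiers with the same version in GENCODE v44, 53024 had the same position. Spike-in rows, all at 0, were left out. Symbols were matched for 60437 of 60651 identifiers.

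Estimated counts were rounded, filtered with filterByExpr and scaled by TMM. The groups, taken from the sample titles, were compared with edgeR 4.0.16 in R 4.3.3 (quasi-likelihood F test), two-sided, with Benjamini-Hochberg adjustment over all genes tested and a threshold of 0.05. The SE is the log2 fold change divided by the square root of F. DESeq2 1.42.0, limma-voom (limma 3.58.1), other scalings and filters, a replicate block and fits without single libraries were alternatives, and the fit without rounding was added after seeing the data. The edgeR step was tested on simulated data. Limits on a count of 0 use 3 counts and cover counting error only. Likeness used log2(CPM + 0.5).

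The members and gene lists were chosen with earlier results of these data known. Named genes were the members, *MYCN*, genes sharing exons with a member, the 3 genes of lowest p in each list and the 3 genes most like the member of lowest p. Markers and further list genes named as examples were chosen after their values were seen.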

Additional observations from a re-analysis of the deposited data

How the results depend on the processing

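Member calls moved from 0 to 2 higher (*MBNL2* and *CELF4*), with 0 lower, under no filter, both DESeq2 fits, the replicate block and the fit without both libraries numbered 2. The same fits in that order called 1, 1, 1, 2 and 3 splice targets higher and 1 lower in each, and 1, 2, 2, 2 and 2 genes of related families higher. Without both libraries numbered 2, 1 partner (*DDX5*) was higher. Over all genes, 33 were higher and 20 lower in the main comparison, against 185 and 117 with no filter, 290 and 209 under DESeq2 on all genes, 346 and 260 under DESeq2 on edgeR's genes, 421 and 254 with the block, 487 and 387 without both libraries numbered 2, and 27 and 13 with RLE size factors. For these counts, the cause was not tested.

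With the replicate number as a block, adjusted p was 0.00360 for *MBNL2* and 0.00301 for *CELF4*. Deviations from the group means correlated by 0.0793, 0.586 and 0.292 between same-numbered libraries. With 1 of these under 0.1, the numbers were not taken as pairs in the main fit. The labels do not settle whether they are pairs, and the calls of *MBNL2* and *CELF4* depend on this choice.

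Across fits that left out 1 library, members higher ranged from 0 to 2, splice targets higher and lower from 0 to 1, related families higher from 0 to 2, and all genes from 0 to 361 higher and from 0 to 331 lower. The nonzero member and list counts came without EtOH replicate 2. In these fits log2 fold changes ranged from -0.27 to 0.062 for *MBNL1*, -0.047 to 0.53 for *MBNL3*, -0.022 to 0.33 for *CELF2*, -0.29 to 0.62 for *CELF6*, -0.22 to 0.21 for *MYCN* and -0.047 to 1.02 for *AKT1*, which was below 0 without Tet replicate 3. Without both libraries numbered 2, *CELF6* was at -0.096, *MYCN* at 0.13 and *AKT1* at 1.08. The difference in the log2 MBNL to CELF ratio ranged from -0.020 to 0.36 without 1 library, below 0 without EtOH replicate 1, EtOH replicate 3 or Tet replicate 2, and was -0.30 without *MBNL3* and *CELF1*, the highest members.

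Of 127 member comparisons with an alternative, 110 kept direction and side of the threshold, 12 passed it newly and 5 changed sign. For the other named genes these were 179, 25 and 4 of 208. Low counts limit *CELF5* and *CELF6*.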
